A study of Rattus norvegicus with 62 samples.

Results

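The change with time was examined in the amygdala of the 35 rats, of 62 sequenced, whose animal number begins with 1. The choice follows the numbers in their labels. In this number series, 28 animals belonged to the chronic time-point (14 sham and 14 blast) and 7 to the sub-acute time-point (2 sham and 5 blast). Animals are named here as in the labels, with A for sub-acute or C for chronic, B for blast or S for sham, and the number. The sub-acute animals were AB101, AB103, AS104, AS105, AB108, AB109 and AB110, and the chronic animals carried the higher numbers of the series. The other 27 animals of the study were all sub-acute, 26 with numbers that begin with 2 (14 sham and 12 blast) and the sham animal AS601, and the sources used here do not say what the numbers stand for. In the study as a whole, time and number series therefore go together, because no chronic animal has a number that begins with 2. Within the first series the comparison of time is made among animals that share the series.

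All animals were male Long Evans rats, bought at 10 to 12 weeks of age, housed singly, and put through behavioral tests before tissue was taken. The tests differed by time-point. Chronic animals were not given the object recognition and prepulse inhibition tests, and their open field was larger. Blast animals were anesthetized and placed in a shock tube, where they received 3 overpressure exposures of 74.5 kPa, 1 every 24 hours. Sham animals were handled alike without the exposures. Sub-acute animals (called acute in the deposited labels) were tested 1 to 1.5 months after exposure and chronic animals 12 to 14 months after it. Age, time since treatment and the differences in testing thus go together with time-point and cannot be told apart. RNA came from bilateral punches of the central and basolateral amygdala. The basolateral nucleus, built mainly of excitatory neurons, receives sensory input and takes part in fear learning, while the central nucleus, built mainly of inhibitory neurons, sends its output toward the hypothalamus and brainstem. With age, rodent brain tissue is known for stronger expression of glial and immune genes and weaker expression of genes tied to cell division and growth. A tissue punch holds neurons, glia and vessels together, so that fewer cells of a type and less RNA per cell cannot be told apart in the values below.

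The files identify genes by Ensembl ID only, and 0 of the 32545 IDs could be paired with a symbol in the gene table at hand. Genes are for this reason described by number, direction and level. For the gene lists drawn up for glia, vessels, neurons and their pathways, and for the markers of the labelled tissue, no values could be given. As examples, 2 genes that rose and 2 that fell are given by ID.

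The 35 libraries held between 18220986 and 60825421 counts on genes. Totals ran from 37627110 to 60825421 (median 54549460) in sub-acute animals of the first series and from 18220986 to 51769475 (median 40226759.5) in chronic animals. With treatment as a covariate, the log2 total of chronic libraries differed by -0.437 from that of sub-acute libraries, a difference in the total of -26.1% (exact permutation of time-points within each treatment, two-sided, p = 0.0076). Depth thus moves with time-point, and the values that bear on it are given beside the results. In addition, 5 chronic libraries stood apart, CS115, CS144, CB111, CB147 and CB149. Their scores on the first principal component, which held 27.6% of the variance of log2 CPM (counts scaled to the library total and TMM factor, on a log2 scale), were 37.7 or higher, against -27.3 to 15.9 in the other 30 animals. Their quality weights, which are low for an animal whose genes lie far from the fitted group means, ran from 0.122 to 0.444, against 0.693 to 2.41 in the others. CS115 and CB149 also had the lowest totals, at 20582780 and 18220986 counts, while CS144 had 44337306 counts.

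**Figure D1:**
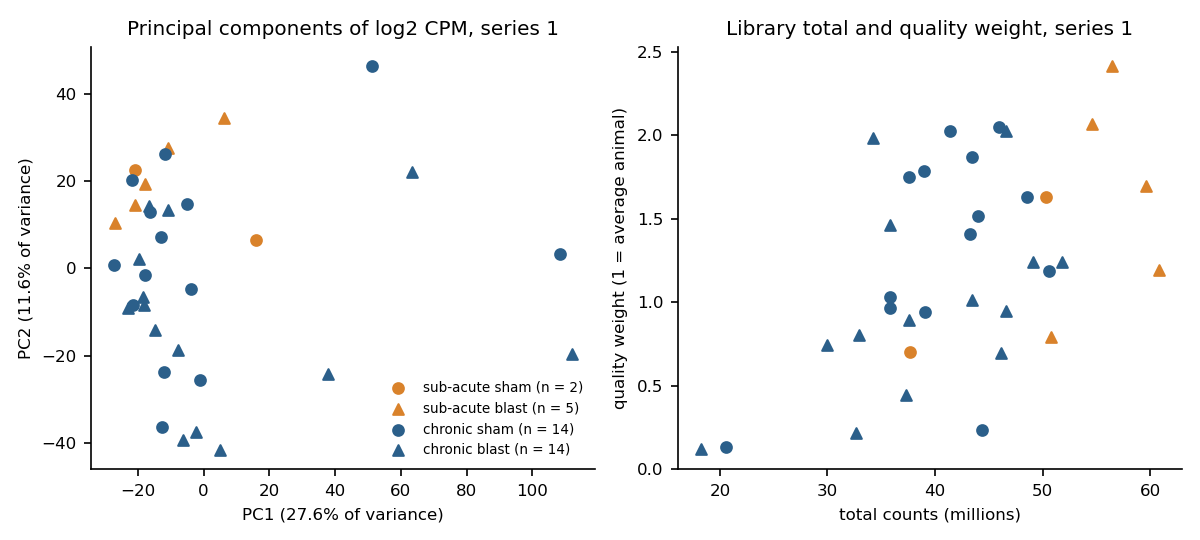
Left, scores of the 35 animals of the first number series on principal components 1 and 2 of log2 CPM, by time-point (color) and treatment (symbol). Right, each animal's total counts against its quality weight. The 5 chronic animals with a first component score of at least 37.7 have the lowest weights, and the 7 sub-acute animals all score between 6.54 and 34.5 on the second component, within the chronic range of -41.6 to 46.4.

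To ask which genes changed with time within the first number series, chronic animals were compared to sub-acute animals with treatment as a covariate. Of 16662 genes tested, 26 (0.156%) differed by 1.2-fold or more with a limma p that stayed under 0.05 after Benjamini-Hochberg adjustment. Of these, 13 rose and 13 fell. The balance was not stable, with 79.2% of 384 genes higher in chronic animals with DESeq2, 31.4% of 35 without AB108 and 36.8% of 38 without AS104. Their log2 fold changes ranged in size from 0.35 to 3.11, with a median of 0.90. Before adjustment, 2590 genes (15.5%) had a p under 0.05 (833 would be 5%), and 1360 of them were higher in chronic animals. The number of genes called was sensitive to single animals. It was 3 without AB101, 1 without AB103, 12 without AB109 and 1 without AB110. Without the 5 chronic libraries that stood apart it was 672, with 358 genes higher and 314 lower, and 25 of the 26 genes were among them. Leaving out animals far from their group means lowers the spread by construction.

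**Figure D2:**
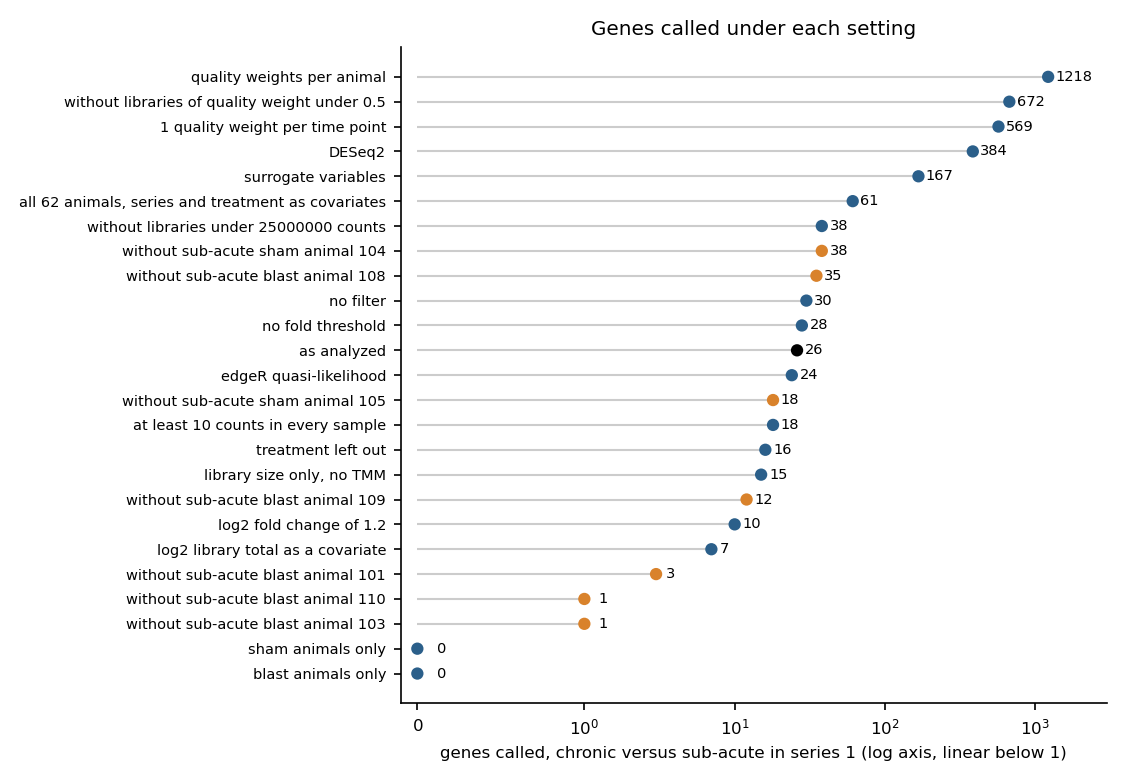
Number of genes called between chronic and sub-acute animals of the first number series (horizontal axis, log scale, linear below 1) as analyzed (black), without each sub-acute animal (orange) and under each other setting (blue). The number is 26 as analyzed, from 1 to 38 without 1 sub-acute animal, and up to 1218 with quality weights per animal.

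ENSRNOG00000025745 had the smallest p of all genes and was lower in chronic animals. In sub-acute sham animals of the first series it stood at 27.1 and 21.4 CPM, and in sub-acute blast animals at 20.8, 25.5, 19.7, 21.6 and 21.4 CPM. In the 28 chronic animals the lowest value was 10.8, the median 13.9 and the highest 23.5 CPM. All but 1 of the chronic animals, 27 of 28, lay below every sub-acute animal of the series, so the groups overlapped through a single animal. The log2 fold change was -0.68 (standard error 0.10, adjusted p = 0.0012 in limma's test). It was -0.67 (adjusted p = 0.0223, limma) when the log2 library total was added to the model. Of the 4 genes named here, it alone remained below an adjusted p of 0.05 when any 1 of the 7 sub-acute animals was left out.

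ENSRNOG00000013917 was also lower in chronic animals, from a lower level. Its sub-acute values were 4.85 and 6.69 CPM in sham and 6.39, 4.89, 3.03, 5.12 and 4.93 CPM in blast animals. Chronic animals had a lowest value of 0.753, a median of 2.67 and a highest value of 4.84 CPM. Here 17 of 28 chronic animals lay below all sub-acute animals, and of the sub-acute animals only AB108 lay within the chronic range. The log2 fold change was -0.95 (standard error 0.17, adjusted p = 0.0127 in limma's test). The log2 fold change stayed near this size while the adjusted p in limma's test passed 0.05 in some fits, at -0.89 (0.0557) without AB101, -0.95 (0.0642) without AB103, -0.95 (0.0541) without AB110 and -0.92 (0.0661) with the log2 library total added.

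ENSRNOG00000039463 rose. It stood at 1.05 and 0.826 CPM in sub-acute sham animals and at 1.56, 1.07, 1.94, 1.18 and 1.02 CPM in sub-acute blast animals of the series, against a lowest value of 1.51, a median of 2.17 and a highest value of 3.47 CPM in chronic animals. Of the chronic animals, 22 of 28 were above all 7 sub-acute animals, and the overlap came from AB101 and AB108. These levels rest on few counts, between 41 and 96 per sub-acute library of the series, and the smallest chronic count was 57. The log2 fold change was 0.93 (standard error 0.16, adjusted p = 0.0114 in limma's test). It was 0.89 (adjusted p = 0.0642, limma) without AB103, 0.88 (0.0541) without AB110 and 0.75 (0.0795) with the log2 library total added.

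ENSRNOG00000027837 rose as well, from 3.09 and 2.52 CPM in sub-acute sham animals and 3.63, 2.51, 5.03, 2.81 and 2.42 CPM in sub-acute blast animals to a median of 5.41 CPM in chronic animals (lowest 2.90, highest 8.01). In 17 of 28 chronic animals the level exceeded that of every sub-acute animal of the series, the highest of which was AB108. The log2 fold change was 0.79 (standard error 0.14, adjusted p = 0.0114 in limma's test). Leaving out AB103 or AB110 gave log2 fold changes of 0.74 and 0.73 with adjusted p-values of 0.0705 and 0.0541 in limma's test, and adding the log2 library total gave 0.85 (0.0233). At a log2 fold change of at least 1.2 in place of 1.2-fold, 10 genes were called with time, and the 4 named genes, all of smaller change, were not among them.

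**Figure D3:**
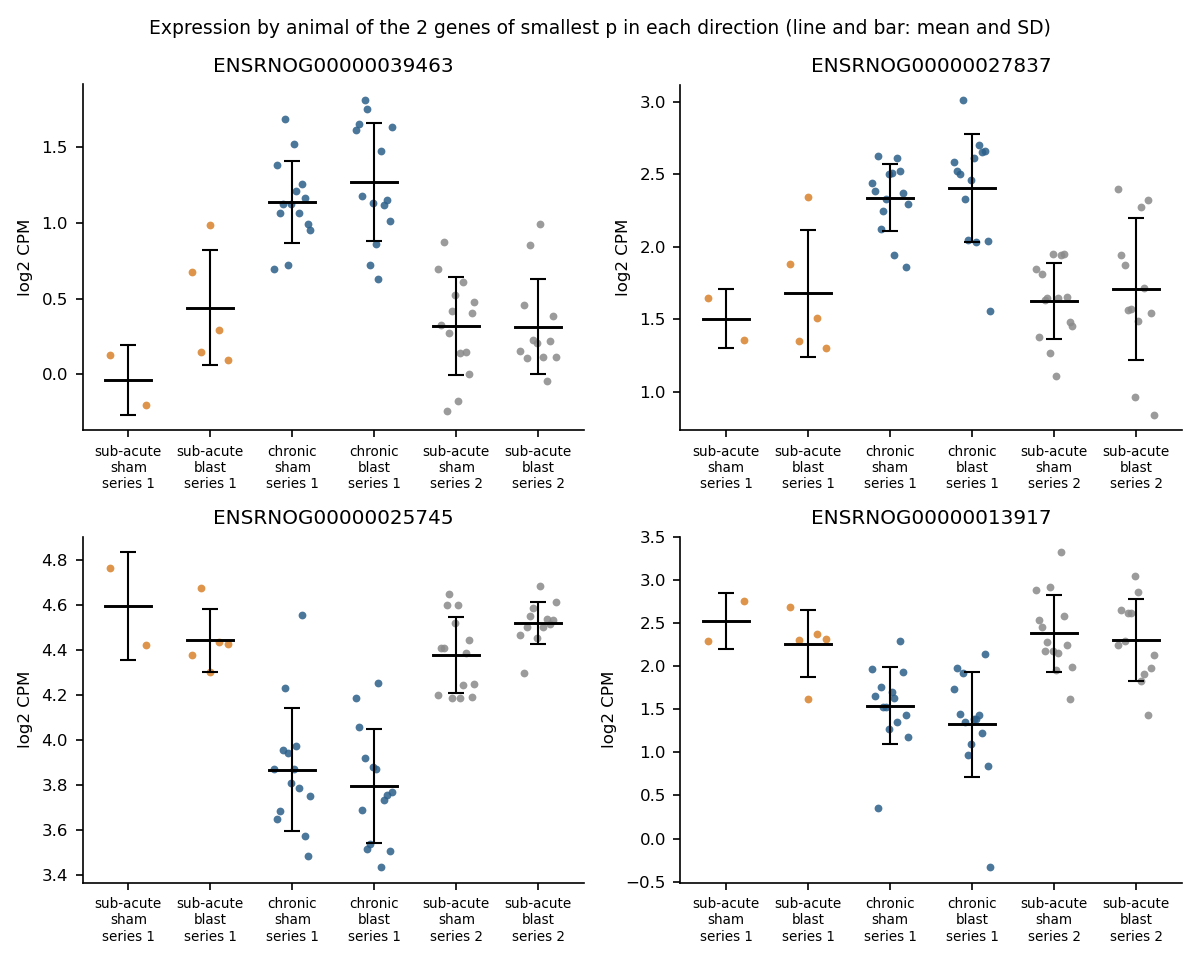
Log2 CPM of the 4 genes in each animal by time-point, treatment and number series, with the mean (line) and SD (bar) of each group. Orange points are the 7 sub-acute and blue points the 28 chronic animals of the first number series, and gray points are the 26 sub-acute animals whose numbers begin with 2. The chronic means lie above both sets of sub-acute means in the top row and below them in the bottom row, and the gray points span every orange point except AS104 of ENSRNOG00000025745, at 27.1 CPM.

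Whether the number series itself carried a difference was asked among sub-acute animals, where both series are present. The 7 animals of the first series were compared to the 26 of the second with treatment as a covariate. Of 16576 genes tested, 0 passed adjustment and the fold threshold (0% of the genes tested, limma's test), and edgeR's quasi-likelihood test and DESeq2 also called 0. At a raw p under 0.05 there were 178 genes in limma's test (1.07%) and 235 in DESeq2. The median size of the log2 difference between series was 0.0522, with a median standard error of 0.104, so that differences of moderate size in single genes were not detectable with these animals. Leaving out each of the 7 animals in turn gave 0 genes each time.

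Intervals of the difference between series included 0 for each of the 4 named genes. For ENSRNOG00000025745 the 26 animals of the second series ran from 18.2 to 25.7 CPM (median 22.3), and the log2 difference of the first against the second series was 0.01, with a 95% confidence interval from -0.13 to 0.15. The change with time in the first series had an interval from -0.88 to -0.47. The log2 difference between series was 0.04 (interval from -0.33 to 0.42) for ENSRNOG00000013917, -0.02 (from -0.33 to 0.29) for ENSRNOG00000039463 and -0.08 (from -0.42 to 0.26) for ENSRNOG00000027837. None of the 4 had a raw p under 0.639 in limma's test. Of the 26 genes that changed with time in the first series, 24 were tested between series and 3 had a raw p under 0.05 there, where the share over all genes tested was 1.07%. Both comparisons use the same 7 sub-acute animals, so these 3 are not independent of the change with time.

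The same 28 chronic animals were also set against the 26 sub-acute animals of the second series. Of 16000 genes tested, 1492 were differentially expressed (9.32%, limma's test), 966 of them higher in chronic animals (64.7%), and 5250 genes (32.8%) had a raw p under 0.05. Among those 5250 the balance was the other way, with 2528 higher and 2722 lower. The number of sub-acute animals differs between these comparisons, 26 against 7, and the median standard error of a log2 fold change was 0.0797 here against 0.137 within the first series. The median size of the log2 fold change over the genes tested was 0.109 here and 0.128 within the first series. For ENSRNOG00000025745 the log2 fold change was -0.62 (standard error 0.06) against the second series and -0.68 (standard error 0.10) within the first. The corresponding values were -0.88 (0.13) and -0.95 (0.17) for ENSRNOG00000013917, 0.90 (0.09) and 0.93 (0.16) for ENSRNOG00000039463, and 0.72 (0.09) and 0.79 (0.14) for ENSRNOG00000027837. These pairs of values share the chronic animals. The named genes were also chosen by their p within the first series, which favors larger changes there. With all 62 animals in 1 model that held treatment and number series as covariates, 61 genes changed with time, 31 higher and 30 lower, and 22 of the 26 were among them. No chronic animal lies outside the first series, so time rests there on the same 28 chronic and 7 sub-acute animals. The other animals add to the treatment term and the estimate of spread, and the overlap is not independent support.

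**Figure D4:**
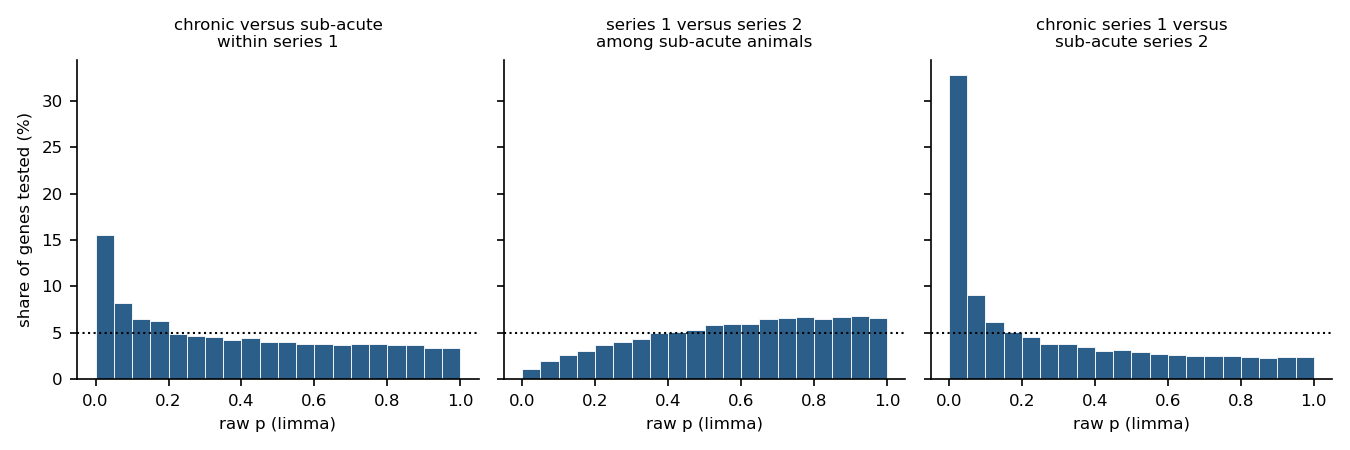
Share of genes tested, in percent, by raw p of limma's test in bins of width 0.05, for time within the first number series, for the first against the second series among sub-acute animals, and for chronic animals against the second series. The dotted line marks 5%, the share each bin would hold if p-values were spread evenly. The lowest bin holds 15.5%, 1.07% and 32.8% of genes.

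The direction of the change with time differed by expression level. When the genes tested were split evenly into 3 sets of 5554 by mean log2 CPM over the 35 animals, 978 genes of the lowest set had a raw p under 0.05, and 74.1% of these were higher in chronic animals. In the middle set the number was 864, with 55.2% higher. In the highest set it was 748, with 21.1% higher and 590 genes lower in chronic animals. Of the 26 genes called after adjustment, 14 were in the lowest set (8 higher and 6 lower), 10 in the middle set (5 and 5) and 2 in the highest set (both lower). When the log2 library total was added to the model, the shares higher in chronic animals were 53.0%, 46.0% and 46.1% of 683, 1016 and 1012 genes, and 7 genes were called, 4 of which were among the 26. Without the libraries under 25000000 counts the shares were 74.8%, 54.7% and 21.9%, and without the 5 that stood apart they were 73.9%, 53.3% and 29.8%. Because chronic libraries were shallower, the total and the time-point overlap in what they account for, and their parts cannot be told apart.

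**Figure D5:**
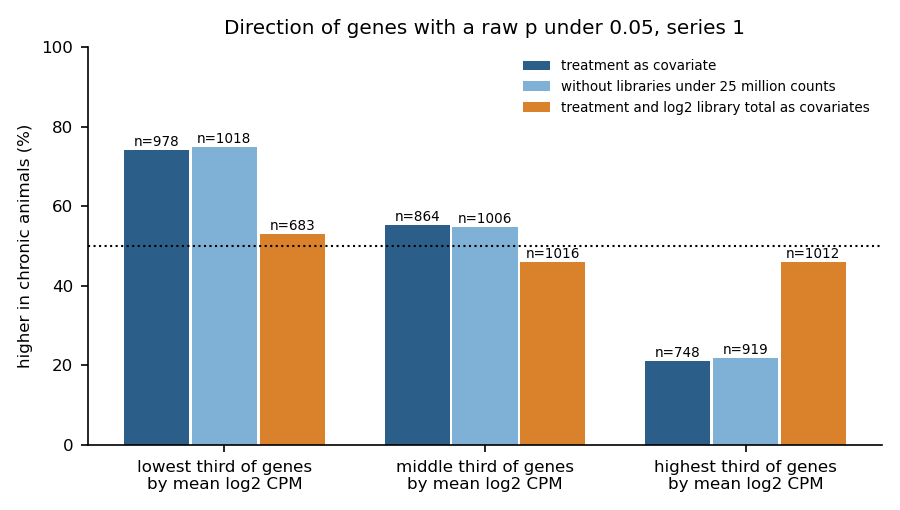
Share of genes higher in chronic animals, in percent, among those with a raw p under 0.05 in the first number series, for genes of the lowest, middle and highest mean log2 CPM. Bars give the model with treatment as a covariate, the same model without libraries under 25000000 counts, and the model with the log2 library total added, with the number of genes above each bar. The share falls from 74.1% to 21.1% across levels in the first model and lies between 46.0% and 53.0% with the library total.

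To ask whether the change with time depended on blast, the treatment by time interaction was tested in the 35 animals. Of 16662 genes, 0 had an adjusted p under 0.05 (0%, limma's test; 0 with edgeR and with DESeq2), and the smallest adjusted p was 0.999. At a raw p under 0.05 there were 290 genes (1.74%), with 230 in edgeR's test and 290 in DESeq2, where 833 would be 5%. The sub-acute sham group held 2 animals, and the median standard error of the interaction was 0.296 on the log2 scale. Interactions of moderate size in single genes, not only small ones, could thus go undetected. The absence of called genes does not show that the change with time was alike in blast and sham animals. The 26 genes called for time had the same sign in sham and blast animals in every case, a description of genes chosen on both groups together, against 10011 of all 16662 genes tested. For ENSRNOG00000025745 the log2 fold change was -0.73 in sham (95% interval from -1.09 to -0.37) and -0.65 in blast animals (from -0.90 to -0.40), and the interaction was 0.08 (from -0.36 to 0.52). For ENSRNOG00000039463 it was 1.21 in sham (from 0.54 to 1.88) and 0.83 in blast (from 0.44 to 1.22), with an interaction of -0.38 (from -1.15 to 0.39). ENSRNOG00000013917 changed by -1.02 and -0.92 and ENSRNOG00000027837 by 0.85 and 0.77 on the log2 scale, in sham and blast respectively. These values come from the interaction model in all 35 animals. In blast animals ENSRNOG00000025745 had an adjusted p of 0.0393 there, and the other named genes from 0.0535 to 0.0927 (limma's test). No named gene had an adjusted p under 0.05 in sham animals. When each treatment was analyzed alone, 0 genes were called in blast animals (14 against 5, smallest adjusted p 0.0714 in limma's test, 2237 genes with a raw p under 0.05) and 0 in sham animals (14 against 2, 520 genes).

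Blast and sham animals of the first series were compared in the same model with time as a covariate. No gene was differentially expressed (0% of 16662, limma's test, 0 in edgeR's test), while DESeq2 called 2 genes, both lower in blast. Raw p-values under 0.05 were found for 563 genes (3.38%) in limma's test, 663 in edgeR's test and 778 in DESeq2, against 833 for 5% of the genes. Of the limma genes, 203 were higher and 360 lower in blast animals.

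Variability among animals was compared per gene as the variance of log2 CPM about the treatment means. The chronic variance exceeded the sub-acute variance of the first series for 84.9% of 16073 genes, with a median ratio of 2.56. The ratio of chronic animals to the second sub-acute series had a median of 1.83, and that of the first to the second sub-acute series had a median of 0.789. Without the 2 libraries under 25000000 counts the ratio within the first series was 1.79. Without the 5 libraries that stood apart it was 1.23, with 59.7% of genes above 1, and against the second series it was 0.953. These 5 were all chronic and lay far from their group means, so leaving them out lowers the chronic variance by construction. No sub-acute library was left out. Genes of the same animal vary together, so these medians are descriptions and were not tested. The sub-acute variances of the first series rest on 7 animals, so equal variances need not give a median ratio of 1.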

How the data were processed

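Amygdala RNA was sequenced by the authors from rRNA-depleted stranded libraries. The authors aligned the reads with STAR 2.4.2a to Ensembl Rnor 6.0, counted them with featureCounts 1.4.3-p1 and deposited raw counts per gene, without normalization. The strand setting and the treatment of multi-mapping reads are not given in the sources used here, so genes with near-identical copies or overlapping neighbours are uncertain. The count table had 2 columns that match no sample, which were not used. Groups came from the sample labels.

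The methods of the study name voom in limma. TMM factors, voom and limma 3.58.1 (edgeR 4.0.16, R 4.3.3) were applied to genes passing edgeR's expression filter by time-point or series, with Benjamini-Hochberg adjustment over all genes tested. A fold of at least 1.2 was required, except for the interaction. The study's methods state the 1.2 as a log fold change, and that threshold was run as an alternative. Log2 CPM values used a prior count of 2. The displayed values of the named genes and the variances used TMM factors over all 62 animals. Principal components, the sets by expression level and the numbers of chronic animals beyond all sub-acute animals used factors over the first series. Library totals were compared by exact permutation of time-points within treatment (1395360 arrangements). The comparisons were repeated with DESeq2 1.42.0 and edgeR's quasi-likelihood test, surrogate variables (sva 3.50.0), sample quality weights, other filters and scaling, other sets of animals and the library total. In simulated counts for the comparison within the first series (16509 genes tested, 200 changed 2-fold), limma recovered 74.5% with 8 false calls. Genes were drawn independently there, without shifts shared by many genes of an animal. These values therefore do not give the recovery or the false calls in the real data.

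The animals compared, and the gene lists, were chosen with earlier results of these data known. The named genes are the 2 IDs of smallest p in each direction among the genes called, since no symbols were paired. No pair among the 595 pairs of animals had the same counts within sampling noise (smallest chi-square per gene, averaged over genes, 12.1). The labels give separate animals as replicates. Totals per animal ranged from 18220986 to 60825421, and their number of counts limits the precision for low genes.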

Additional observations from a re-analysis of the deposited data

Results flagged for a closer look

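Within the 7 sub-acute animals of the first series, the value of each named gene, the library total and 6 other measures per animal were examined for 1 animal far from the rest, also within the 5 blast animals, which made 22 groups. Chance flags about 1 in 20 groups, and 2 were found. ENSRNOG00000013917 stood at a log2 CPM of 1.62 in AB108 (150 counts), where the other sub-acute animals of the series ran from 2.29 to 2.75. AB108 is the sub-acute animal nearest to the chronic animals in this gene, and without it the log2 fold change with time was -1.05, against -0.95 with it. The library of AS104 was the smallest of the 7, with a log2 total of 25.2 (37627110 counts, the next being 50359072 counts). Without AS104 the number of genes called with time was 38, of which 21 were among the 26.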

How the results depend on the processing

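Over 10 results, 164 values were computed under alternatives, of which 21 were added after seeing the data. The named genes and the difference in library totals kept their sign under every alternative. The other results are numbers of genes called, which have no sign that could reverse. Among genes called with time, the share higher in chronic animals moved to either side of 50%, to 79.2% with DESeq2 and 31.4% without AB108. The 26 genes called with time within the first series became 384 with DESeq2 (79.2% higher, against 50%), 1218 with quality weights per animal (57.0%), 167 with surrogate variables, 61 with all 62 animals and the series as a covariate, 16 without the treatment term, 15 without TMM, 10 at a log2 fold change of 1.2, 7 with the library total, and 0 in blast and 0 in sham animals alone. With 1 weight per time-point (1.59 for sub-acute, 0.89 for chronic) they became 569 (62.2% higher), and without the 5 libraries that stood apart 672. Both of these were added. The number without each sub-acute animal ran from 1 to 38, and 30 genes (63.3% higher) were called without a filter. Of the 26 genes, 20 were called by edgeR, 25 by DESeq2 and 26 with either kind of weight. The sham fit has 2 sub-acute animals. The higher fold threshold can only lower the number. Causes of the other differences in number were not tested, and fewer animals went with lower numbers in some fits and higher numbers in others.

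Chronic animals against the second series gave 5282 genes without a filter (87.6% higher, against 64.7%). The interaction gave 3 genes without a filter and blast against sham gave 2 with DESeq2. The contrast between sub-acute series stayed at 0 under all 14 alternatives run. The shares of genes higher in chronic animals ranged from 62.7% to 85.9% at the lowest, 49.0% to 65.8% at the middle and 16.9% to 30.9% at the highest levels over 21 settings. They were 59.3%, 39.9% and 16.0% in sham animals alone, and the values with the library total are given above.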
